A study of Nicotiana with 12 samples.

Results

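Heat-shock genes of Nicotiana leaves were followed through 4 probe sets of an Affymetrix array made for tomato, those annotated with the symbols HSP17-6, HSP21, HSC80 and Hsp90-1. Each gene had 1 probe set, so the members were 4 of 10101 probe sets tested and 4 of the 802 genes named in the annotation. The 4 groups were stressed PSARK::IPT plants (called IPT here) given 300 mL of water a day in each pot, watered IPT plants given 1000 mL, stressed wild-type (WT) plants given 300 mL, and watered WT plants given 1000 mL. The water supplies were held for 45 days, the plants were about 10 weeks old, and each group had 3 biological replicates with 1 array each, 12 arrays in all. PSARK::IPT plants carry IPT, a cytokinin synthesis gene, behind the promoter of SARK, a receptor kinase gene that is switched on in maturing and senescing leaves. The labels do not say how many transgenic lines were used, how many plants entered a replicate, or which Nicotiana species was grown.

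Heat-shock proteins are molecular chaperones, which bind unfolded or partly folded proteins and keep them from clumping. Small heat-shock proteins hold such proteins in a state that can be refolded, and in plants they are made in the cytosol, the plastid, the mitochondrion and the endoplasmic reticulum. HSP90 chaperones act later and finish the folding of particular clients, among them signalling proteins and receptors. In leaves, heat and drought are the best known triggers of the small heat-shock proteins, while many HSP90 genes are active without stress.

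The 4 members were a cytosolic small heat-shock gene, HSP17-6 (probe set Les.4004.1.S1_a_at), the plastid small heat-shock gene HSP21 (Les.269.1.S1_at), and the cytosolic HSP90 genes HSC80 (Les.1146.1.S1_at) and Hsp90-1 (Les.321.1.S1_at). The letter a in the name of the first marks, in the maker's naming, probes shared by several transcripts of a gene. All values are the authors' RMA values on the log2 scale. Tomato probes read Nicotiana RNA, so levels of different probe sets were not set against each other, and binding of close relatives to the same probes was not tested. Array medians lay between 3.38 and 3.45. Hsp90-1 was above the array median on 12 of 12 arrays, HSP21 on 10, HSC80 on 8 and HSP17-6 on 6, and signal over background was not known. A lower value in leaf RNA does not tell fewer cells with the transcript apart from less transcript per cell.

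Over all probe sets, the correlation of replicate arrays was between 0.982 and 0.992. Leaf markers (12 probe sets of 9 genes of light harvesting, photosystem II, plastocyanin and carbonic anhydrase) summed to 24800 to 25980 on the linear scale in stressed IPT, 25610 to 27070 in watered IPT, 13350 to 14310 in stressed WT and 19630 to 20270 in watered WT. Of them, 10 were above every array median, as were 6 of 13 probe sets of dividing cells, 2 of 7 of flowers, 0 of 4 of fruit and 0 of 1 of roots. Markers were found by the start of their symbols, and TMP and TMT entered the flower list by the letters TM alone. Probe sets named for senescing leaf were not found. Poly-A control transcripts, added before labelling, differed in their 3′ minus 5′ log2 difference, a measure of how far labelling reached. It averaged 2.99 ± 0.09 in stressed IPT, 2.31 ± 0.37 in watered IPT, 3.71 ± 0.75 in stressed WT and 1.83 ± 0.09 in watered WT (SD, n = 3 each). Stressed WT replicate 2 stood highest at 4.56.

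Without water shortage, all 4 heat-shock genes were lower in IPT than in WT leaves. HSP17-6 was 3.80-fold lower, and HSP21, HSC80 and Hsp90-1 were between 1.40-fold and 1.51-fold lower. The call of HSP21 was lost in 9 alternative fits and kept in 5. The comparison asked how the transgenic plants differed from WT without water shortage. Of the 10101 probe sets, 6.12% were lower in watered IPT. A probe set passed at a limma adjusted p under 0.05 over all probe sets. With each array centred on its median, 743 probe sets were lower and 606 higher, against 618 lower and 778 higher as deposited, and the 4 genes were lower either way. The median log2 difference of the 4 was -0.56, against 0.02 over all probe sets.

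The small heat-shock gene HSP17-6 read 2.91, 3.23 and 3.27 in watered IPT, against 5.42, 4.60 and 5.17 in watered WT. No watered IPT array came near the WT range, and the difference was -1.93 (SE 0.19, limma adjusted p = 2.34e-06, n = 3 arrays each). HSP21, known to protect photosystem II in tomato, read 3.88, 3.33 and 3.41 in watered IPT, against 3.89, 4.09 and 4.09 in watered WT. The groups were separated by a narrow gap between watered IPT replicate 1 and watered WT replicate 1, and the difference was -0.48 (SE 0.15, adjusted p = 0.0474). This call ended without watered WT replicate 1 (adjusted p = 0.0565), 2 (0.134) or 3 (0.129), and without watered IPT replicate 2 (0.180) or 3 (0.165).

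HSC80, an HSP90 gene known in tomato for expression without heat, read 3.28, 3.41 and 3.37 in watered IPT, against 3.91, 3.95 and 3.97 in watered WT. Replicates lay close together in both groups (SD 0.06 in watered IPT and 0.03 in watered WT), and the difference was -0.59 (SE 0.12, limma adjusted p = 0.00260). Hsp90-1, the other cytosolic HSP90 gene, read 8.37, 8.39 and 8.40 in watered IPT, against 8.98, 8.86 and 8.92 in watered WT. The groups did not overlap, and the difference was -0.53 (SE 0.11, adjusted p = 0.00285). The difference of HSC80 minus that of Hsp90-1 was -0.06, with arrays that overlapped (exact permutation p = 0.4). That of HSP17-6 was larger than that of HSP21 by -1.44 and than that of HSC80 by -1.34, with no overlap of arrays. In an exact permutation test (two-sided) each reached p = 0.1, the lowest possible with 3 arrays a group, and 0.2 adjusted over 12 such comparisons.

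**Figure D1:**
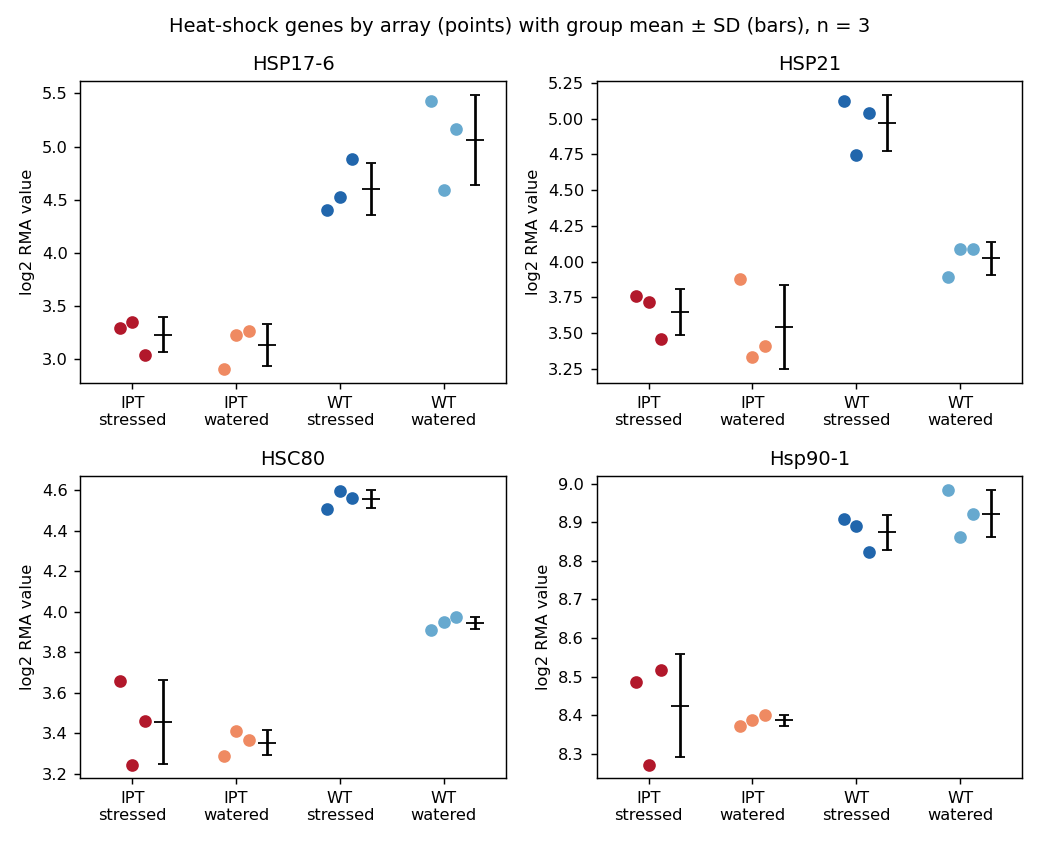
Log2 RMA value of each array (points, replicates 1 to 3 from left to right) for the 4 genes in stressed IPT, watered IPT, stressed WT and watered WT, with the group mean ± SD (black bars, n = 3); each panel has its own scale, which does not start at 0. Every IPT array lies below every WT array of the same water supply, and stressed WT lies above watered WT for HSP21 and HSC80. For HSP21 when watered the gap is narrow, 3.88 in IPT against 3.89 in WT. The share of all probe sets separated in this way was not counted.

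Under water shortage all 4 genes were again lower in IPT than in WT leaves, and the differences of HSP17-6, HSP21 and HSC80 were all above 2-fold. Of all probe sets, 8.42% were lower in stressed IPT. The median of the 4 was -1.21, against -0.01 over all probe sets. The comparison asked whether the genotypes differed once both were stressed.

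HSP21 read 3.76, 3.72 and 3.46 in stressed IPT, against 5.12, 4.75 and 5.04 in stressed WT. It was 2.50-fold lower (log2 difference -1.32, SE 0.15, limma adjusted p = 1.08e-05, n = 3 arrays each). HSP17-6 read 3.30, 3.35 and 3.04 in stressed IPT, against 4.41, 4.53 and 4.88 in stressed WT. It was 2.59-fold lower (-1.37, SE 0.19, adjusted p = 5.99e-05). For both small heat-shock genes the highest stressed IPT array stayed below the lowest stressed WT array by about 1 log2 unit.

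HSC80 read 3.66, 3.24 and 3.46 in stressed IPT, against 4.51, 4.60 and 4.56 in stressed WT. The IPT arrays were spread more widely than the WT arrays (SD 0.21 and 0.04), and the gene was 2.15-fold lower (-1.10, SE 0.12, limma adjusted p = 4.65e-06). Hsp90-1 read 8.49, 8.27 and 8.52 in stressed IPT, against 8.91, 8.89 and 8.82 in stressed WT. It was 1.37-fold lower (-0.45, SE 0.11, adjusted p = 0.00823). The difference of HSC80 was larger than that of Hsp90-1 by -0.65, with no overlap of arrays and an exact permutation p of 0.1 (0.2 adjusted over the 12).

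Labelling controls and leaf markers moved with genotype as well. Between IPT and WT the poly-A controls differed in their 3′ minus 5′ value by 0.48 when watered (exact permutation p = 0.2) and by -0.71 under stress (exact p = 0.1). Their mean level differed by -1.53 when watered and 0.44 under stress (exact permutation p = 0.1 each). Of the leaf transcripts, the 3′ minus 5′ value of ubiquitin differed by -0.58 when watered and -0.37 under stress, and that of EF1a by -0.67 under stress (exact permutation p = 0.1 each), while EF1a when watered and GAPDH and actin under both water supplies had an exact p of 0.3 or more. With the poly-A 3′ minus 5′ difference as a covariate, 4 of 4 genes passed under stress, with HSP17-6 at -1.44, HSP21 at -1.44, HSC80 at -1.07 and Hsp90-1 at -0.42 (limma adjusted p = 0.0479 for the last). When watered 3 of 4 passed, HSP17-6 at -1.88, HSC80 at -0.61 and Hsp90-1 at -0.55, and HSP21 at -0.40 did not (limma adjusted p = 0.146). Over all probe sets, 650 were lower under stress and 561 when watered in that fit, against 850 and 618 without the covariate. Stressed IPT arrays (2.89 to 3.06) and stressed WT arrays (3.19 to 4.56) did not overlap in the covariate. Under stress the fit could therefore not fully tell it apart from genotype. Of the 12 leaf marker probe sets, 6 were higher and 0 lower in watered IPT, and 10 were higher and 0 lower in stressed IPT. Of 13 for dividing cells, 1 and 2 were higher, and 1 of 7 for flowers was higher in each. The part of these markers in the heat-shock differences was not tested.

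**Figure D2:**
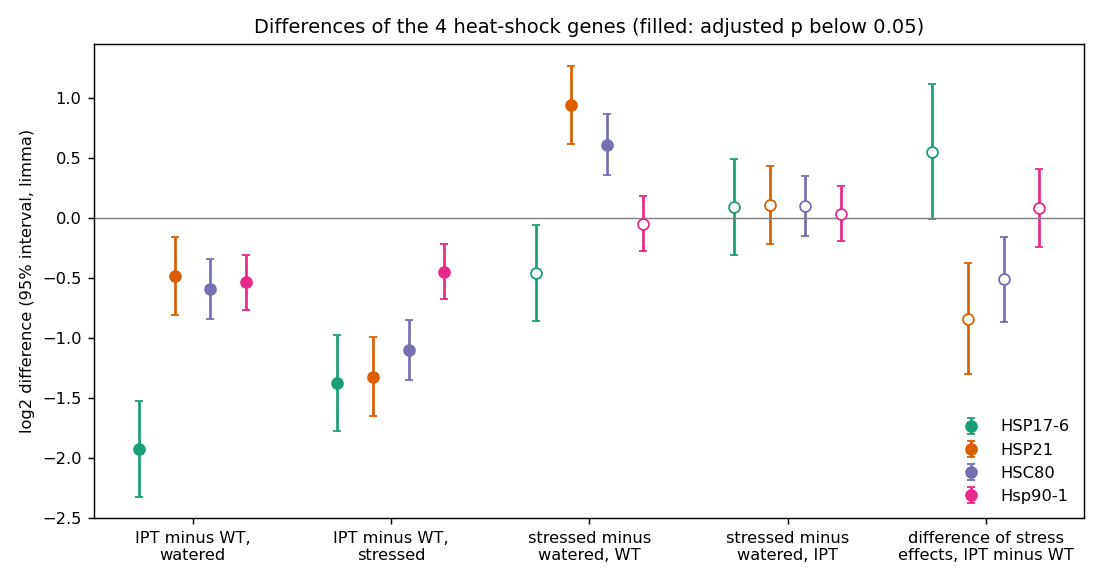
Log2 difference with its 95% interval (limma, 12 arrays) for each gene in 5 comparisons; filled points passed an adjusted p of 0.05 over all probe sets. All 8 genotype differences lie below 0 and are filled, HSP21 and HSC80 are filled in the WT stress comparison, and 0 of 4 are filled for stress in IPT and for the difference of the stress effects.

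What water shortage did to the heat-shock genes was asked within each genotype. In WT leaves HSP21 rose 1.93-fold and HSC80 1.53-fold, and HSP17-6 and Hsp90-1 did not pass. Of all probe sets 5.63% rose in stressed WT, against 2 of the 4 genes. The 3 stressed WT arrays of HSP21, from 4.75 to 5.12, lay above the watered WT arrays, from 3.89 to 4.09 (difference 0.95, SE 0.15, limma adjusted p = 0.000847). Those of HSC80, from 4.51 to 4.60, lay above the watered ones, from 3.91 to 3.97 (0.61, SE 0.12, adjusted p = 0.00304).

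Hsp90-1 averaged 8.87 ± 0.04 in stressed WT and 8.92 ± 0.06 in watered WT (SD, n = 3 each). Its difference of -0.05 had a 95% interval from -0.28 to 0.18, and the arrays overlapped. The change of HSC80 exceeded that of Hsp90-1 by 0.66, with no overlap of arrays (exact permutation p = 0.1, 0.2 adjusted over the 12). Of the HSP90 genes, then, only HSC80 passed in stressed WT, and both were lower in IPT under either water supply.

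HSP17-6 averaged 4.60 ± 0.25 in stressed WT and 5.06 ± 0.42 in watered WT, the widest spread among the 4 genes in the 4 groups. Its difference of -0.46 did not pass (95% interval -0.86 to -0.06, limma adjusted p = 0.135). Without watered WT replicate 2, which stood at 4.60, it was -0.69 and passed (limma adjusted p = 0.0230), the only 1 of 6 fits without an array to do so. Without watered WT replicate 1, which stood at 5.42, it was -0.28 (adjusted p = 0.428), and with the poly-A covariate described next it was also -0.28 (adjusted p = 0.882). The change of HSP17-6 was below that of HSP21 by -1.40, again without overlap (exact permutation p = 0.1). Adjusted over the 12 comparisons, that exact permutation p was 0.2. The estimates of HSP17-6 and HSP21 had opposite signs in stressed WT, but only HSP21 passed, and a fall of HSP17-6 was not established.

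The poly-A 3′ minus 5′ difference was 1.88 higher on the stressed than on the watered WT arrays, and leaf transcripts moved the same way, by 0.71 for GAPDH, 0.65 for EF1a and 0.93 for actin (exact permutation p = 0.1 each) and by 0.11 for ubiquitin (exact p = 0.5). With this poly-A value added as a covariate, 0 of 4 genes passed in WT by limma. Over all probe sets 42 passed in that fit, against 1142 without the covariate. Stressed and watered WT arrays did not overlap in the covariate, so the fit could hardly tell it apart from water supply. The count of 0 is therefore not a result particular to the 4 genes. HSP21 stood at 1.26 with a wider error (SE 0.33, adjusted p = 0.148) and HSC80 at 0.52 (SE 0.25, adjusted p = 0.532). On stressed WT replicate 2, the array with the largest 3′ minus 5′ difference, HSP21 was the lowest of its group and HSC80 the highest. Without that array both genes still passed. Stressed WT replicates 1 and 3, at 3.37 and 3.19, still lay above the watered WT arrays (1.77 to 1.93) in the poly-A value. Leaving out replicate 2 thus does not tell labelling apart from water supply. Of the leaf marker probe sets, 3 of 12 fell in stressed WT, against 573 of all 10101 probe sets.

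**Figure D3:**
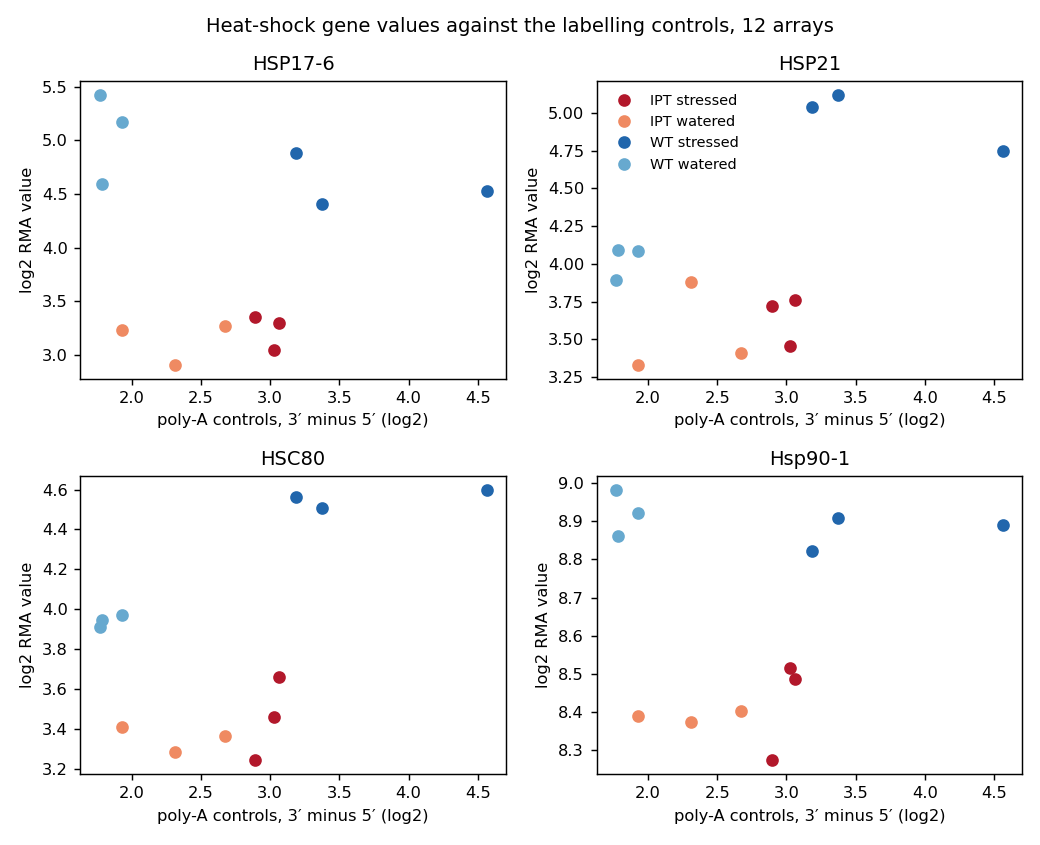
Log2 RMA value of each gene against the 3′ minus 5′ log2 difference of the poly-A controls on the same array, 12 arrays coloured by group. Stressed WT (3.19 to 4.56 on the horizontal axis) and watered WT (1.77 to 1.93) do not overlap along it. Watered IPT lies from 1.93 to 2.67 and stressed IPT from 2.89 to 3.06.

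In IPT leaves none of the 4 genes passed between stressed and watered plants. All 4 differences were small, from 0.04 for Hsp90-1 to 0.11 for HSP21, and by limma 0 of 4 also had an unadjusted p under 0.05, against 1437 of the 10101 probe sets. Of all probe sets 1.36% passed in either direction. The 95% intervals ran from -0.30 to 0.49 for HSP17-6, -0.22 to 0.43 for HSP21, -0.15 to 0.35 for HSC80 and -0.19 to 0.27 for Hsp90-1. For HSP21 and HSC80 these intervals lay below the changes of 0.95 and 0.61 measured in WT. The stressed and watered IPT arrays overlapped for every gene. On the IPT arrays HSP17-6 read at most 3.35, below the lowest array median of 3.38, and HSP21 and HSC80 reached down to 3.33 and 3.24. Signal over background was not known, so small differences at these levels do not show that the transcripts were unchanged.

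The difference between the stress effects, IPT minus WT, was then tested directly. HSP21 had -0.84 (SE 0.22, limma adjusted p = 0.0623) and HSC80 -0.51 (SE 0.17, adjusted p = 0.144), and neither passed. HSP17-6 had 0.55 (SE 0.27) and Hsp90-1 0.09 (SE 0.15). Of the 4, 0 passed, against 1.90% of all probe sets. An unadjusted p under 0.05 was found for 2 of the 4, HSP21 and HSC80, and for 1432 of the 10101 probe sets. HSP21 passed without stressed WT replicate 2 (-0.95, adjusted p = 0.0373) or watered IPT replicate 2 (-0.94, adjusted p = 0.0465). A smaller stress effect in IPT was thus not established for any of the 4 genes.

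Ordered by level, the 4 genes followed either of 2 patterns. HSP21 and HSC80 were highest in stressed WT, then watered WT, then stressed IPT, then watered IPT. HSP17-6 and Hsp90-1 were highest in watered WT, then stressed WT, then stressed IPT, then watered IPT, and only the middle step passed. In all 4 genes the IPT groups did not differ beyond their spread. Stressed IPT leaves were below watered WT leaves for HSP17-6 (-1.83, limma adjusted p = 3.37e-06), HSC80 (-0.49, adjusted p = 0.00824) and Hsp90-1 (-0.50, adjusted p = 0.00398), while HSP21 at -0.38 did not pass (adjusted p = 0.109). In that comparison 8.42% of all probe sets were lower.

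Other chaperone genes were followed by symbol patterns, which found 11 probe sets of 10 genes beside the members. Stig1 and TomloxE entered only by their first letters, and no heat-shock transcription factor was named. In watered IPT against watered WT 1 of the 11 was higher and 0 lower, with a median of -0.01. In stressed IPT against stressed WT 0 were higher and 1 lower, with a median of -0.06. In WT 1 rose and 0 fell, and in IPT 0 passed. In each genotype comparison 10 of the 11 did not pass, while 4 of 4 members did. Over all 10101 probe sets, 1396 passed in either direction between the watered genotypes and 1682 between the stressed genotypes. The contrast between the members and the 11 was not tested, and both lists were chosen with earlier results of these data known.

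The other small heat-shock genes named were dim. HSP17.4, of the cytosol, lay between 1.92 and 2.69 on all arrays, and ER-SHSP, of the endoplasmic reticulum, between 2.02 and 2.59, all below the array medians. They differed by -0.09 and -0.01 between watered IPT and watered WT and by -0.13 and 0.10 between the stressed genotypes, and did not pass. CPN21, a plastid co-chaperonin, had 0.08 and 0.12, and CLPP2, a subunit of the Clp protease, 0.29 and -0.06, and neither passed.

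MTSHP, a mitochondrial small heat-shock gene added after the annotation was read, stood at 3.19, 2.86 and 2.58 in watered IPT, against 3.58, 3.32 and 3.72 in watered WT. It was lower in watered IPT (-0.66, SE 0.18, limma adjusted p = 0.0214). The call ended without watered WT replicate 1 or 3, without watered IPT replicate 2 or 3 (adjusted p up to 0.115), and with the poly-A covariate. Between the stressed genotypes MTSHP differed by -0.04 and did not pass. PP5, a protein phosphatase that binds HSP90 and was added likewise, had 0.08 when watered and -0.10 under stress.

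The small heat-shock gene vis1, known from ripening tomato fruit, read 2.24, 2.42 and 2.43 in stressed IPT, against 3.47, 3.39 and 2.48 in stressed WT. It was lower in stressed IPT (-0.75, SE 0.20, limma adjusted p = 0.0170), with stressed WT replicate 3 close to the IPT arrays. The call ended without stressed WT replicate 1 or 2 or stressed IPT replicate 1 (adjusted p up to 0.0901), with only the arrays compared (adjusted p = 0.0506), and with the poly-A covariate (-0.50, adjusted p = 0.210).

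CYP1, a cyclophilin that speeds up a slow step of protein folding, went against the members when watered. It read 5.40, 5.51 and 5.41 in watered IPT, against 5.24, 4.62 and 4.41 in watered WT (0.68, SE 0.16, limma adjusted p = 0.00986). Without watered WT replicate 3 it was 0.51 and did not pass (adjusted p = 0.0579). CYP1 also rose in stressed WT (0.72, SE 0.16, adjusted p = 0.00891), a call that ended with the poly-A covariate (0.83, adjusted p = 0.462). Of 3 protein turnover genes, the leucine aminopeptidase gene LAPA2 rose in stressed WT (0.45, SE 0.12, adjusted p = 0.0251) and was lower in stressed IPT than in stressed WT (-0.41, SE 0.12, adjusted p = 0.0273). Each of these calls of LAPA2 ended in 6 of 14 alternatives. The first was lost without watered WT replicate 1 or 3 or stressed WT replicate 2 or 3, and the second without stressed WT replicate 2 or 3 or stressed IPT replicate 1 or 3 (adjusted p up to 0.105 and 0.103). With the poly-A covariate they had an adjusted p of 0.591 and 0.0807, and with only the arrays compared 0.0773 and 0.0529. LAPA1 and the ubiquitin-conjugating enzyme gene UBC27 did not pass in any of the 5 comparisons.

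**Figure D4:**
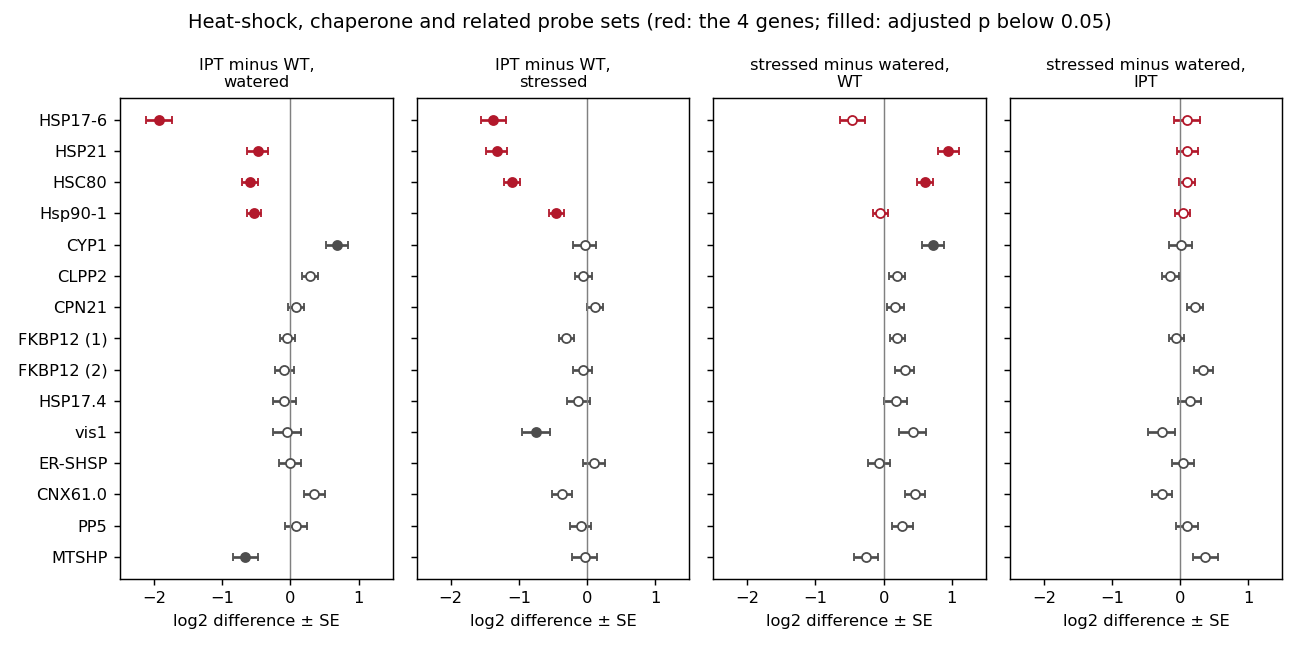
Log2 difference ± SE for the 4 heat-shock genes (red) and for other chaperone and related probe sets (grey) in 4 comparisons; filled points passed a limma adjusted p of 0.05, and a number in brackets tells the FKBP12 probe sets apart. The red points are all below 0 and filled in both genotype comparisons, while most grey points are open and lie near 0.

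Genes with array profiles most like those of the members were found among 622 other named genes by the root mean square difference of log2 values over the 12 arrays, each gene centred on its own mean. For HSP17-6, which itself varied by 0.87, these were FDH, a formate dehydrogenase gene (0.33), TSW12, of a lipid transfer protein (0.35), and CIP2b (0.38). Their differences between watered IPT and watered WT were -1.83, -1.31 and -1.56, against -1.93 for HSP17-6. In stressed WT their changes were -0.52, 0.11 and 0.31, against -0.46 for HSP17-6. For HSP21, which varied by 0.59, they were ARG1, an arginase gene (0.29), the bZIP factor gene abz1 (0.30) and hqt, of chlorogenic acid synthesis (0.30). In stressed WT these had changes of 0.76, 1.36 and 0.60. Between watered IPT and watered WT, abz1 at -0.02 and hqt at -0.24 did not pass (limma adjusted p = 0.967 and 0.231). ARG1 passed there at -0.44 (adjusted p = 0.0437), a call that ended in 7 of 14 alternatives.

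For HSC80, which varied by 0.49, the nearest were the superoxide dismutase gene SODCC.1 (0.15), the kinase gene SNF1 (0.16) and again ARG1 (0.17). SODCC.1 and SNF1 differed by -0.89 and -0.86 between stressed IPT and stressed WT. In stressed WT, where HSC80 passed, they had 0.30 and 0.31 and did not pass (limma adjusted p = 0.0700 and 0.0763). For Hsp90-1, which varied by 0.25, they were mdh, a malate dehydrogenase gene (0.10), the ascorbate peroxidase gene APX2 (0.12) and NDK, of a nucleoside diphosphate kinase (0.13). These had differences of -0.34, -0.40 and -0.46 between watered IPT and watered WT. Between the stressed genotypes mdh at -0.35 and NDK at -0.41 passed, and APX2 at -0.30 did not (limma adjusted p = 0.0730). The calls of mdh ended in 10 of 14 alternatives when watered and in 9 of 14 under stress. The genes share the same 12 arrays with the members, and the likeness is a description.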

How the data were processed

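RNA from 12 leaf samples was read on the Affymetrix Tomato Genome Array. Per the submitters' processing notes the authors used RMA, and the deposited table holds its log2 values, a scale inferred here from their range. RMA's version and options were not given in the sources used here. Samples were grouped by their titles. Scanner files and detection calls were not analysed here. Of 10209 probe sets, 108 control probe sets were left out and 10101 tested, with no filter on dim ones. A linear model of the 4 group means over all 12 arrays was fitted in limma 3.58.1 under R 4.3.3, using lmFit and eBayes. Tests were two-sided, with Benjamini-Hochberg adjustment over all probe sets of a comparison and a threshold of 0.05, and errors are limma's moderated standard errors. Whether replicates came from separate plants beyond being called biological is not stated. The members, lists and comparisons were chosen with earlier results of these data known. All 4 members were named, with the other members of the symbol lists and, per member, the 3 genes nearest in profile; MTSHP and PP5 were added after the annotation was read. Alternatives were median-centring, quantile normalization, a brightness filter, trend and robust moderation, array weights, only the arrays compared, the replicate number as a block, the poly-A covariate, and leaving out each array. The labels do not say that replicate numbers pair arrays, so the numbers were not treated as pairs. Same-numbered arrays of different groups had correlations of their deviations between -0.19 and 0.07. The steps were tested on simulated data. The number of arrays limits the precision.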

Additional observations from a re-analysis of the deposited data

Results flagged for a closer look

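The effect of stress differed between the genotypes by the test of the difference itself for 3 genes named beside the members, and for 0 of the 4 members. LAPA2 had a difference of stress effects, IPT minus WT, of -0.71 (SE 0.17, limma adjusted p = 0.0454), with -0.26 in IPT and 0.45 in WT, and it ended in 13 of 19 alternatives. The bZIP factor gene abz1 had -1.53 (SE 0.22, adjusted p = 0.000699), with -0.16 in IPT and 1.36 in WT, and passed in 19 of 19 alternatives. The gene hqt had -0.74 (SE 0.17, adjusted p = 0.0300), with -0.14 in IPT and 0.60 in WT, and passed in 10 of 19. Both abz1 and hqt had been picked for their likeness to HSP21 over the same arrays.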

How the results depend on the processing

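Under the alternatives, 280 of 300 values of the 4 members kept their direction and their side of the threshold, 11 lost a call, 6 gained one and 3 turned sign, the last all for stress in IPT, where nothing passed. Between the stressed genotypes 4 of 4 genes passed under every alternative, and between the watered genotypes 4 or 3, the one lost being HSP21. HSP21 lost that call in 9 alternatives and kept it in 5. The losses include array weights (limma adjusted p = 0.0554) and only the arrays compared (adjusted p = 0.0605). In stressed WT the count was 0 with the poly-A covariate. For the difference of the stress effects it was 1, HSP21, with the brightness filter, with trend and robust moderation and with array weights, and between 0 and 1 when an array was left out. Without 1 array, stress in IPT ranged from -0.020 to 0.19 for HSP17-6, from 0.0023 to 0.28 for HSP21, from -0.0022 to 0.21 for HSC80 and from -0.0080 to 0.11 for Hsp90-1. FDH in stressed WT turned to 0.29 with the covariate, from -0.52. The causes were not tested. With the replicate block HSP21 between the watered genotypes no longer passed (-0.48, limma adjusted p = 0.0524), the block changed no other call of the members, and it gave 1027 calls in stressed WT against 1142. Over all probe sets, 1142 passed in stressed WT, but 694 with only the WT arrays, 42 with the covariate and 748 without stressed WT replicate 2. In IPT 137 passed, but 228 with trend and robust moderation, 254 with array weights and 60 with the covariate, and 81 without stressed IPT replicate 1 or 2, 62 without watered IPT replicate 1, 54 without watered IPT replicate 2 and 244 without stressed WT replicate 2. For the difference of the stress effects 192 passed, but 300 with the brightness filter, 332 with trend and robust moderation and 103 with the covariate. Signal over background was not known, which limits the folds of HSP17-6, HSP21 and HSC80, whose values reached below the array medians.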
